A study of Mus musculus with 15 samples.

Results

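Interscapular brown fat of mice given an agonist antibody to FGFR1/KLB was compared with that of mice given FGF21, 5 arrays against 5, chosen by their titles (aFGFR1/KLB 41 to 45 and FGF21 36 to 40) out of the 15 arrays of the series. All mice were adult wild-type (wt) C57BL/6N males on a high-fat diet. The antibody, bFKB1, was given once into the peritoneum at 10 mg/kg, and FGF21, the human protein, over 5 days at 2 mg/kg/day, split into b.i.d. doses of 1 mg/kg; brown fat was taken at day 5. The 5 control arrays (31 to 35) came from mice of the same kind and diet, and the labels name no substance injected into them. Agent, dose and schedule differ together between the treatments and cannot be told apart. The design text calls the 5 samples of a group biological replicates, and the labels name no batch.

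FGF21 is an endocrine hormone that signals through FGF receptor 1 (FGFR1) only where the co-receptor beta-klotho (KLB) is present, and adipocytes carry both. The active receptor drives the Ras, MEK and ERK kinase cascade, which switches on its own brakes: MAP kinase phosphatases of the Dusp family and Sprouty proteins. The cascade also switches on target genes such as Etv transcription factors. In brown fat, receptor activation is known to go with higher thermogenic gene expression, led by uncoupling protein 1 (UCP1), which lets mitochondria burn fuel as heat. An antibody that joins FGFR1 to KLB engages the same receptor complex without the hormone and stays in the blood far longer.

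Values are log2 of normalised array intensity, and differences are antibody minus FGF21, so that a positive value is higher with the antibody. Of 13174 genes tested with limma across all 15 arrays, 49 differed at a Benjamini-Hochberg adjusted p under 0.05, here "called". That is 0.372% of the genes, with 17 higher with the antibody (0.129%) and 32 higher with FGF21 (0.243%). Only 18 of the 49 differed at least 1.5-fold, 5 with the antibody and 13 with FGF21, and 6 at least 2-fold. The groups of 5 did not overlap for 48 of the 49 (P3h2 was the exception); over all genes, 315 (2.39%) lay wholly higher with the antibody and 303 (2.3%) wholly higher with FGF21. For 11156 genes, 84.7% of those tested, the 95% interval of the difference lay within 1.5-fold either way. For comparison, against the shared controls 682 genes (5.18%) were called with the antibody and 833 (6.32%) with FGF21. The count moved with single arrays: it was 10 without FGF21 40, 11 without aFGFR1/KLB 42 and 251 without control 34, which enters only through the estimate of the spread. The 10 genes called without FGF21 40 were Car14, Wscd2, Ttc28, Acsl3, Thbs1, Crip2, S100g, Dusp4, Fbxo4 and Tle3, and these were called in each of the 15 fits that left out 1 array. Each other call named here was lost in at least 1 such fit. S100g passed the filter on dim genes only through its FGF21 values.

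**Figure D1:**
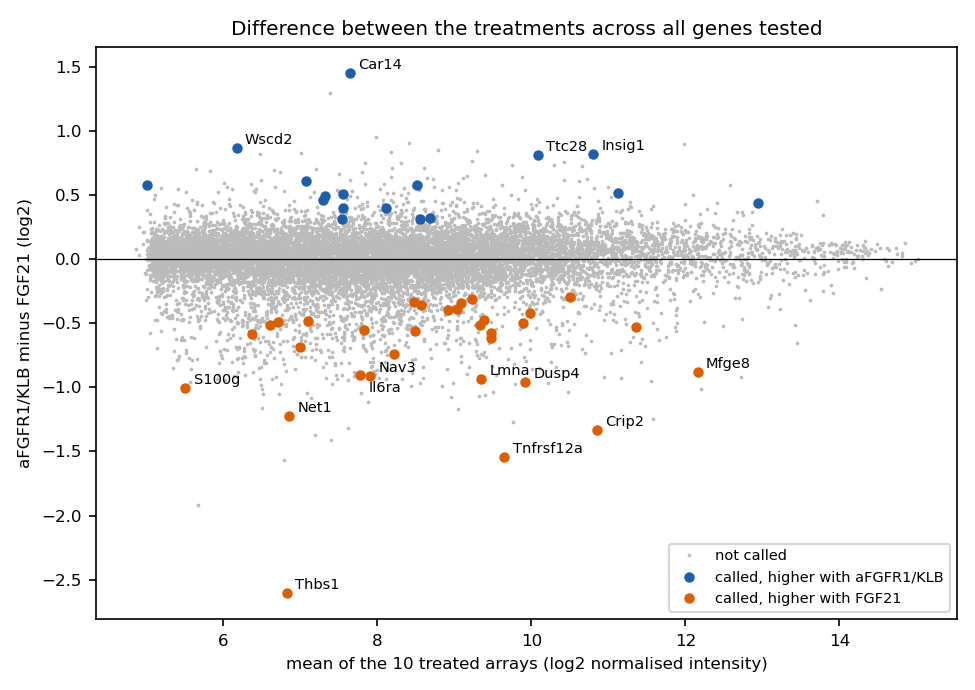
Difference between the treatments (aFGFR1/KLB minus FGF21, log2) against the mean of the 10 treated arrays (log2 normalised intensity) for the 13174 genes tested. Grey points are not called; blue points are the 17 genes called higher with the antibody and orange points the 32 called higher with FGF21, with Thbs1 lowest at -2.61 and Car14 highest at 1.45.

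Markers of the brown adipocyte itself were not called between the treatments. Ucp1, the gene of the uncoupling protein, read 14.76, 14.81, 14.77, 14.82 and 14.72 with the antibody and 14.55, 14.71, 14.76, 14.71 and 14.74 with FGF21. The groups overlapped, and the difference of 0.09 ± 0.05 (SE, n = 5 per group; 95% interval -0.02 to 0.20) did not pass (limma adjusted p = 0.474). Adipoq, the adipocyte hormone adiponectin, differed by -0.02 (interval -0.13 to 0.09), and the receptor Fgfr1 by -0.01 (-0.27 to 0.24). The co-receptor Klb differed by 0.18 (-0.07 to 0.43). None of the 6 brown adipocyte markers and none of the 6 adipocyte markers measured was called. In the fit of all 15 arrays, each of the 6 brown adipocyte markers had a positive difference (median 0.09), 1 at an unadjusted p under 0.05. Of the adipocyte markers, 3 were positive and 3 negative. Against the shared controls, Ucp1 was called with the antibody (0.19, limma adjusted p = 0.0494) and not with FGF21 (0.10, adjusted p = 0.29). Ucp1 was the 8th brightest gene tested, and compression of differences at that level was not tested.

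The gene that separated the treatments most was Thbs1, which encodes thrombospondin 1, a secreted matrix glycoprotein that binds cells, collagen and latent TGF-beta. It read 8.94, 7.88, 8.28, 7.28 and 8.25 with FGF21. With the antibody it read 5.75, 5.43, 5.65, 5.19 and 5.59, and the controls spanned 5.05 to 5.75. Every FGF21 mouse stood above every antibody and control mouse. The difference was -2.61 ± 0.23 (6.09-fold higher with FGF21; n = 5 per group; limma adjusted p = 0.000215). Against the shared controls, Thbs1 differed by 2.80 ± 0.23 with FGF21 (adjusted p = 1.15e-05) and by 0.20 ± 0.23 with the antibody (adjusted p = 0.711). The antibody and control means, 5.52 and 5.32, were dim, near the filter level of 5.061. A small response to the antibody may not be readable there, and the fold difference rests on such values. The other Thbs1 probe set, with a mean of 4.92, lay below the filter and was not tested.

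Of 22 feedback and target genes of the ERK cascade tested, 2 were called higher with FGF21, Dusp4 and Sdc4, as were 0.243% of all genes. None was called higher with the antibody, where 0.129% of all genes were. Dusp4 encodes a nuclear phosphatase that inactivates ERK and related kinases. Its values were 9.96, 10.48, 10.45, 10.61 and 10.49 with FGF21, and 9.47, 9.49, 9.28, 9.70 and 9.26 with the antibody. The controls spanned 7.91 to 8.42, so 3 separate levels were seen with no overlap. Dusp4 was 1.94-fold higher with FGF21 than with the antibody (-0.96 ± 0.13; limma adjusted p = 0.0068), and stood above control by 2.21 ± 0.13 with FGF21 and 1.25 ± 0.13 with the antibody.

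Sdc4 encodes syndecan-4, a heparan sulfate proteoglycan of the cell surface. It read 11.44, 11.62, 11.54, 11.87 and 11.63 with FGF21 against 11.17, 11.01, 11.04, 11.33 and 10.90 with the antibody, and 9.53 to 9.89 in the controls. Again the groups formed 3 levels; the treatments differed by -0.53 ± 0.10 (limma adjusted p = 0.04). Its call was lost in 10 of the 15 fits that left out 1 array, with adjusted p up to 0.12, and its other probe set differed by -0.34 without passing.

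Spry4, a Sprouty inhibitor of receptor tyrosine kinase signalling, just missed the threshold. Its values were 8.14, 8.22, 8.40, 8.78 and 8.41 with FGF21 and 8.15, 7.57, 7.64, 7.79 and 7.81 with the antibody. The groups overlapped at 1 antibody mouse, aFGFR1/KLB 41 (difference -0.60 ± 0.12; limma adjusted p = 0.0522). For Dusp6, the cytoplasmic ERK phosphatase, FGF21 arrays lay between 10.53 and 11.15 and antibody arrays between 10.43 and 10.76, overlapping (-0.38 ± 0.14; adjusted p = 0.278). Both genes were called above control with either agent, by 1.48 with FGF21 each, and by 0.88 (Spry4) and 1.10 (Dusp6) with the antibody.

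Over the whole feedback list, these 4 genes included, the median difference of the 22 members was -0.31, against 0.01 over all genes, and 18 of 22 were negative. An unadjusted p under 0.05 was reached by 11 of 22 toward FGF21 and by none toward the antibody, where 6.07% and 7.42% of all genes did so. The number called toward FGF21 ran from 1 to 5 in the fits without 1 array. It was 5 without control 34, where 129 of all 13174 genes were called that way. With arrays centred on ribosomal protein genes it was 0. Groups did not overlap for 7 of the 22, each higher with FGF21, where 2.3% of all genes lay wholly higher that way. Members outside the naming rule, named after their values were seen, include Etv5, an ETS transcription factor switched on by FGF signals (-0.90 ± 0.19), and Fosl1, an AP-1 subunit stabilised by ERK (-0.93 ± 0.20), both at a limma adjusted p = 0.0558. Summed over the list, normalised intensity was 12320 to 13560 in FGF21 arrays, 8956 to 9926 in antibody arrays and 5550 to 8311 in controls. These sums did not overlap between any pair of groups, but bright members weigh most in them. In the log2 list mean, where each member counts equally, antibody and control arrays overlapped. Control 34, at 7.9403, stood above aFGFR1/KLB 42 and 43, at 7.9393 and 7.8714. Each FGF21 array stayed above all antibody and control arrays in that mean. Immediate early genes, the first transcription factors to respond to a growth factor, had a median of -0.25, and 0 of 25 were called. Without control 34, 4 were called higher with FGF21, as were 129 of all 13174 genes. Of the 25, 6 reached an unadjusted p under 0.05 toward FGF21 and 1 toward the antibody.

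**Figure D2:**
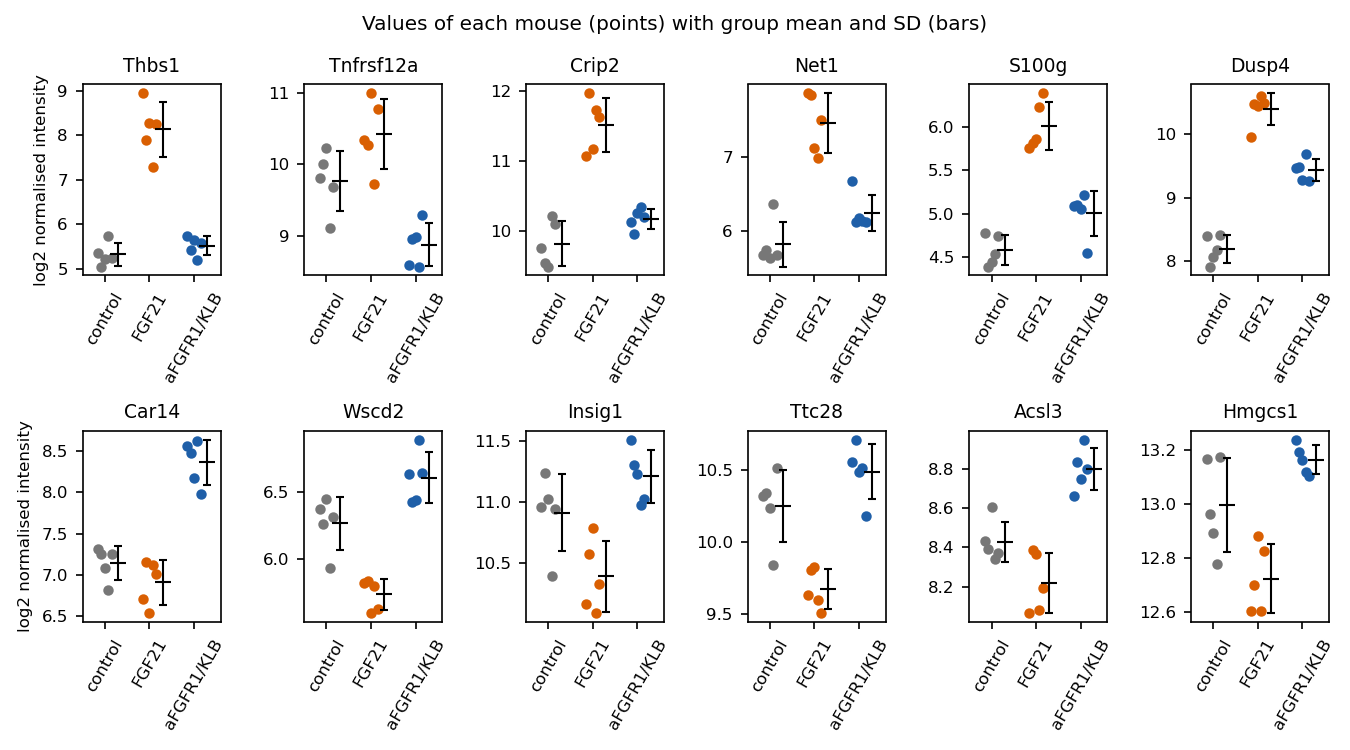
Log2 normalised intensity of each mouse for 6 genes higher with FGF21 (top row) and 6 higher with the antibody (bottom row), by group. Points are mice, and the bar beside each group is its mean with SD (n = 5); no FGF21 point overlaps an antibody point in any panel, and Dusp4 shows 3 separate levels.

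Other genes higher with FGF21 fall into a few kinds. Tnfrsf12a, the receptor for the cytokine TWEAK, read 10.34, 10.27, 11.00, 9.73 and 10.78 with FGF21 and 8.59, 8.96, 8.98, 8.57 and 9.29 with the antibody. The controls lay between, at 9.12 to 10.23, and the treatments differed by -1.54 ± 0.24 (2.92-fold; limma adjusted p = 0.0121). The antibody group was below control (-0.89 ± 0.24; adjusted p = 0.0453), whereas the FGF21 group's 0.65 above it did not pass (adjusted p = 0.13). A second Tnfrsf12a probe set gave -1.64 and passed as well; without FGF21 40 the adjusted p was 0.0506.

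Crip2, a LIM domain protein, read 11.08, 11.97, 11.17, 11.72 and 11.63 with FGF21 and 10.13, 9.96, 10.26, 10.34 and 10.20 with the antibody. It was 2.52-fold higher with FGF21 (-1.34 ± 0.18; limma adjusted p = 0.00646), with controls at 9.49 to 10.21. Net1 encodes a guanine nucleotide exchange factor for small GTPases. Its FGF21 values were 7.87, 7.85, 7.13, 6.99 and 7.50, and its antibody values 6.68, 6.12, 6.17, 6.13 and 6.12, a difference of -1.22 ± 0.19 (adjusted p = 0.0121). The antibody value of 6.68, from aFGFR1/KLB 41, stood apart from the other 4; without FGF21 40 or without aFGFR1/KLB 42 the call was lost, with an adjusted p up to 0.0508. S100g, the calcium-binding protein calbindin-D9k, was a dim gene at 5.76 to 6.39 with FGF21, 4.55 to 5.22 with the antibody and 4.39 to 4.78 in controls (-1.01 ± 0.14; adjusted p = 0.0089). Its antibody and control means, 5.00 and 4.58, lay below the filter level of 5.061. It was therefore tested only through its FGF21 values, and its call carries that limit.

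Of the next group, Lmna encodes the nuclear lamins A and C and differed by -0.93 ± 0.16 (limma adjusted p = 0.0225). Its FGF21 arrays spanned 9.51 to 10.51 and its antibody arrays 8.71 to 9.07, and 2 of its 4 other probe sets also passed. Mfge8, or lactadherin, a secreted bridge between integrins and phosphatidylserine, was at 12.30 to 13.05 with FGF21 and 11.33 to 11.89 with the antibody (-0.88 ± 0.16; adjusted p = 0.0278). Nav3, a microtubule-associated navigator protein, differed by -0.91 and Pvr, the adhesion receptor CD155, by -0.74. These 4 genes were also above control with FGF21, by 0.79 to 1.12, and not called against control with the antibody.

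Il6ra, the interleukin 6 receptor, differed by -0.90 ± 0.17 (limma adjusted p = 0.0367), from 7.82 to 8.77 with FGF21 against 7.25 to 7.43 with the antibody. Its dimmer second probe set differed by -0.01, so the probe sets of this gene disagree. Stat3, the transcription factor that carries the interleukin 6 signal, was also called (-0.48 ± 0.08; adjusted p = 0.0265) and is outside the naming rule; its 3 other probe sets differed by -0.44, -0.36 and 0.03. Gch1, which makes the first step of tetrahydrobiopterin synthesis, differed by -0.68. Pla2g2d, a secreted phospholipase A2, differed by -0.58. Tspan4, a tetraspanin, differed by -0.62: it was 8.89 to 9.39 with the antibody, 9.68 to 10.11 with FGF21 and 9.59 to 9.85 in the controls, so that the antibody group was the one set apart (below control by 0.57, adjusted p = 0.00748).

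Collagens and other matrix genes had a median difference of -0.71, with each of 44 members negative. Only Thbs1 of the 44 was called, where 0.243% of all genes were called toward FGF21. Of the 44, 19 reached an unadjusted p under 0.05, each toward FGF21, where 6.07% of all genes did so. The number called was 9 without control 34, 6 without FGF21 36 and control 34, 15 with array weights and 1 in each of the other fits without 1 array. Over all 13174 genes, the number toward FGF21 was 129 without control 34, 136 without FGF21 36 and control 34 and 362 with array weights. Groups did not overlap for 7 of 44, each higher with FGF21, where 2.3% of all genes lay wholly higher that way. Among the 7 (named after their values were seen) were the basement membrane subunits Lama4 (-0.51), Lamb1 (-0.70) and Col4a1 (-0.56). Macrophage markers had the same sign as this list. Each of the 25 macrophage markers tested was negative, with a median of -0.60, and none was called or reached an unadjusted p under 0.05.

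The marker values rested in part on single mice. Summed macrophage marker intensity was 16440, 32500, 38530 and 50130 in 4 FGF21 arrays and 100800 in FGF21 36. It was 21670 to 37050 with the antibody, and among controls 12790 to 29480 in 4 arrays and 87800 in control 34. Summed matrix intensity ran from 57970 to 149400 with FGF21, the highest again FGF21 36, and from 52160 to 66620 with the antibody. Without FGF21 36 and control 34, the macrophage median was -0.26 and the matrix median -0.48, and all 49 called genes stayed called, among 241. With the macrophage marker mean as a covariate, the matrix median was -0.31 and the macrophage median -0.04, and all 49 again stayed called, among 149. In whole tissue, more cells of a type and more RNA per cell cannot be told apart.

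**Figure D3:**
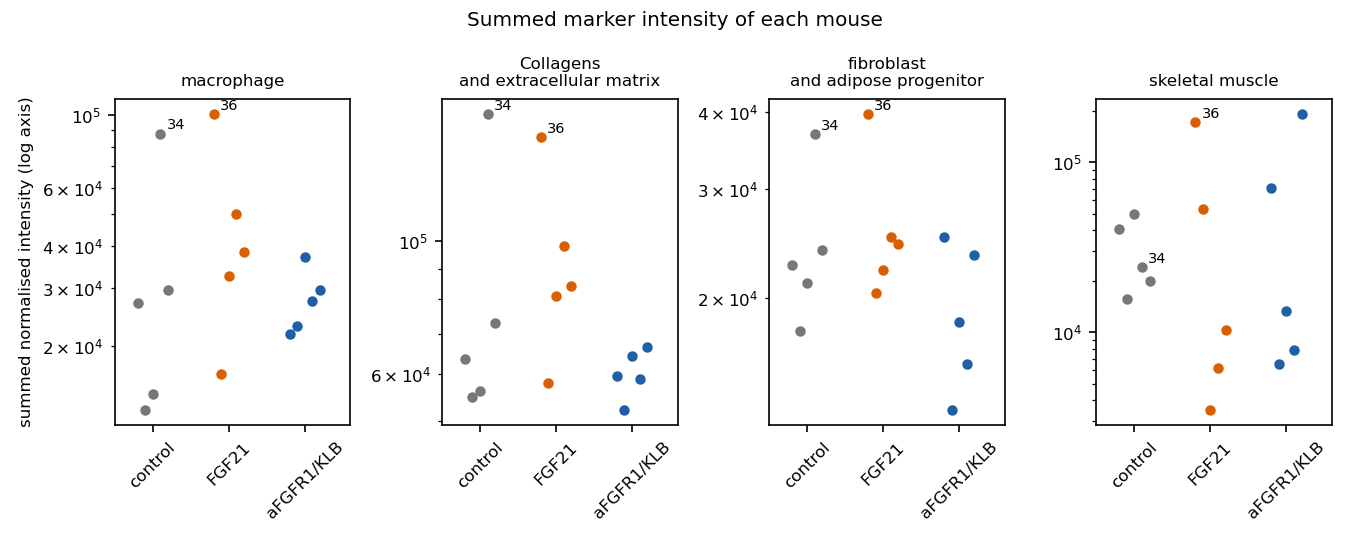
Summed normalised intensity (log axis) of macrophage markers, matrix genes, fibroblast and progenitor markers and skeletal muscle markers in each mouse, by group. FGF21 36 and control 34 are labelled and are the 2 highest arrays for the first 3 sums; muscle marker sums spread from 3489 to 193200 and overlap in all groups.

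The fibroblast and adipose progenitor markers had a median of -0.44, with each of 12 negative and 0 called; their summed intensity was 13190 to 25150 with the antibody and 20390 to 39700 with FGF21. Skeletal muscle markers, which can come from adjacent muscle, ranged from 6496 to 193200 with the antibody and 3489 to 173400 with FGF21, and 0 of 22 were called. Their part in the differences above was not tested beyond the covariate fits, in which all 49 calls stayed.

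Among the genes higher with the antibody, Car14 was the leader. It encodes carbonic anhydrase 14, a membrane enzyme that converts carbon dioxide and bicarbonate. Its values were 8.56, 8.48, 8.18, 8.62 and 7.98 with the antibody, and 6.71, 7.16, 6.54, 7.13 and 7.02 with FGF21. FGF21 values lay around those of the controls (6.82 to 7.31), and each antibody mouse stood above both groups. The difference was 1.45 ± 0.15 (2.74-fold; limma adjusted p = 0.000614), and against the shared controls it was 1.22 ± 0.15 with the antibody (adjusted p = 0.000735) and -0.24 ± 0.15 with FGF21 (adjusted p = 0.421).

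Wscd2, a membrane protein with a WSC domain, read 6.64, 6.43, 6.44, 6.89 and 6.64 with the antibody and 5.82, 5.84, 5.60, 5.80 and 5.63 with FGF21. The difference was 0.87 ± 0.11 (limma adjusted p = 0.00304), with controls between, at 5.94 to 6.45. Ttc28, a protein of tetratricopeptide repeats, was at 10.18 to 10.71 with the antibody, 9.51 to 9.82 with FGF21 and 9.84 to 10.51 in controls (0.81 ± 0.12; adjusted p = 0.0099); both of its other bright probe sets passed, at 0.75 and 0.77. In both genes the FGF21 group was called below control, by 0.53 (Wscd2) and 0.57 (Ttc28).

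The cholesterol list and the fatty acid synthesis list, chosen with earlier results known, together held 3 of the 17 genes. Of 22 cholesterol synthesis and uptake genes tested, 2 were called, Insig1 and Hmgcs1, both higher with the antibody, as were 0.129% of all genes. An unadjusted p under 0.05 was reached by 6 toward the antibody and 1 toward FGF21, against 7.42% and 6.07% of all genes. Insig1 encodes the endoplasmic reticulum protein that holds back the sterol-sensing transcription factor SREBP. It read 11.51, 11.31, 11.23, 10.98 and 11.03 with the antibody and 10.17, 10.58, 10.79, 10.09 and 10.33 with FGF21. No antibody value fell among the FGF21 values, and controls spanned 10.39 to 11.24 (difference 0.82 ± 0.16; limma adjusted p = 0.0474). The call was lost in 13 of the 15 fits without 1 array, with an adjusted p up to 0.136.

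Hmgcs1, the cytosolic HMG-CoA synthase that feeds cholesterol synthesis, read 13.24, 13.19, 13.17, 13.12 and 13.11 with the antibody. With FGF21 it read 12.60, 12.70, 12.88, 12.61 and 12.83, a difference of 0.44 ± 0.08 (limma adjusted p = 0.0398). The antibody values were closely packed and stood above each FGF21 value, with controls at 12.78 to 13.18. Its 4 other probe sets differed by 0.43 to 0.64 and missed the threshold over all probe sets (adjusted p 0.06 to 0.0914). Its call was lost in 10 of the 15 fits. Over the list the median was 0.16, with 18 of 22 positive; it was 0.09 without FGF21 39 and 0.07 with the macrophage covariate. An exception, named after its value was seen, is Fdft1, squalene synthase, at -0.55 ± 0.16 (adjusted p = 0.169).

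Promoter sequence from RefSeq (GRCm38.p6; the 250 bases before each annotated start, 5′ to 3′ in the sense of the gene) was held for 11 of the 17 genes higher with the antibody and 24 of the 32 higher with FGF21. Both strands were searched for a cAMP response element (TGACGTCA), an AP-1 site (TGANTCA), an ETS site (CCGGAAG), an E-box (CACGTG) and a sterol response element (TCACNCCAC); none of these motifs contains another. Those of the 2 called cholesterol genes are shown with those of Car14 and Tnfrsf12a, the most separated gene of each direction with an entry. Capitals mark motif matches. Hmgcs1 lies at chr13:119690101-119690350 (plus strand), Insig1 at chr5:28071162-28071411 (plus), Car14 at chr3:95904686-95904935 (minus) and Tnfrsf12a at chr17:23677450-23677699 (minus).
Hmgcs1: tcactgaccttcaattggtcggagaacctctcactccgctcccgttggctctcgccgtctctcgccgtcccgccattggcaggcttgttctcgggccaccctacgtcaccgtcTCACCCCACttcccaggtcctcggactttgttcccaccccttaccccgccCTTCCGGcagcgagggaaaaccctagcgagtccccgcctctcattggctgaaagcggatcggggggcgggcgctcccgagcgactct
Insig1: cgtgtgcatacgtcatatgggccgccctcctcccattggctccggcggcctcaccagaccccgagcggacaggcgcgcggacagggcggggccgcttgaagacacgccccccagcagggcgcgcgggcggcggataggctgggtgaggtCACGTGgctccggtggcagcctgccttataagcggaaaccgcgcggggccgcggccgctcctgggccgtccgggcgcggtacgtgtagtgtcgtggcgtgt
Car14: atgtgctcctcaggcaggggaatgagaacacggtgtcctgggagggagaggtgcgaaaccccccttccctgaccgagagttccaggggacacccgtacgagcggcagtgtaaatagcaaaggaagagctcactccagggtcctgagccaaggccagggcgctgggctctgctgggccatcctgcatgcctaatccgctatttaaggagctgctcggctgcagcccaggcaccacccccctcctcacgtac
Tnfrsf12a: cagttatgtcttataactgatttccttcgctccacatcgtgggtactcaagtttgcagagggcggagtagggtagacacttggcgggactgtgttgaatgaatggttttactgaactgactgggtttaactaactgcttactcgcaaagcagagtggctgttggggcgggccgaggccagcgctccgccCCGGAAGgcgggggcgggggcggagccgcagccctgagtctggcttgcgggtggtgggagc
Hmgcs1 holds a sterol response element 137 bases before its start and an ETS match at 87 bases. The Insig1 capitals are an E-box at 101 bases and the Tnfrsf12a capitals an ETS match at 61 bases, and the Car14 window holds none of the 5. A gene with several annotated starts was counted once if any of its windows held the motif, here and in the background, which is the 10550 tested genes with an entry (and, second, all 27025 genes of the table). The sterol element occurs in 1 of the 11 antibody-higher genes and 0 of the 24 FGF21-higher ones, against 1.26% (1.22%). ETS matches occur in 1 of 11 and 2 of 24 (9.09% and 8.33%), against 14.5% (7.83%). E-boxes occur in 1 of 11 and 4 of 24 (Il6ra, Net1, Tle3 and Tspan4), against 9.83% (6.86%). AP-1 matches occur in 1 of 11 (Akap1) and 0 of 24, against 5.72% (7.82%), and the cAMP element in none of these, against 2.88% (1.77%). With the window extended past the start, to 300 bases, AP-1 matches occur in 3 of the 24 FGF21-higher genes, against 6.49% of the tested genes. A match describes letters in this window and no binding.

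Of 32 fatty acid and glycerolipid synthesis genes, 1 was called higher with the antibody, as were 0.129% of all genes. This was Acsl3, a long-chain acyl-CoA synthetase found on the endoplasmic reticulum and lipid droplets. It read 8.66, 8.83, 8.75, 8.95 and 8.80 with the antibody against 8.06, 8.39, 8.37, 8.08 and 8.19 with FGF21. The antibody mice stood above the FGF21 mice and above the controls (8.34 to 8.60), by 0.58 ± 0.08 (limma adjusted p = 0.0068) and 0.37 ± 0.08 (adjusted p = 0.0171). A second Acsl3 probe set passed at 0.48. Of the list, 8 of 32 reached an unadjusted p under 0.05 toward the antibody and 0 toward FGF21, against 7.42% and 6.07% of all genes. The list median was 0.08. That median was 0.01 without FGF21 36 or with the macrophage covariate, and 0.14 without FGF21 37 or without FGF21 38. Without control 34, 3 members were called higher with the antibody, as were 122 of all 13174 genes. Lpin1, the phosphatidate phosphatase lipin 1, is outside the naming rule and was closest to the threshold (0.44 ± 0.09; adjusted p = 0.0522).

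Akap1 was the 1 called gene of 29 in adrenergic and cAMP signalling, where 0.129% of all genes were called toward the antibody. It anchors protein kinase A to the outer mitochondrial membrane. It was at 11.20 to 11.54 with the antibody, 10.59 to 10.98 with FGF21 and 11.26 to 11.58 in the controls (0.52 ± 0.09; limma adjusted p = 0.0265). The FGF21 group was the one set apart, below control by 0.58 ± 0.09, and the second Akap1 probe set differed by 0.55 without passing. Arhgap26, a GTPase-activating protein (0.61), Nim1k, a kinase related to AMPK (0.58), and Zfp423, a transcription factor of preadipocyte commitment (0.46), had the same order of group means, and Dcaf4, a subunit of a ubiquitin ligase (0.40), had its antibody mean 0.05 above control. In each of these 4 the FGF21 group was called below control, by 0.35 to 0.76, and the antibody group was not called against control. Nim1k was dim, with FGF21 arrays at 4.36 to 4.91, below the filter level of 5.061.

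The remaining named genes higher with the antibody had intermediate control values. Galnt18, a member of the family that adds the first sugar of mucin-type chains, differed by 0.51. Wnt5a, a secreted ligand of non-canonical Wnt signalling, differed by 0.50, with antibody arrays at 7.49 to 7.73, FGF21 arrays at 6.90 to 7.31 and controls at 6.97 to 7.47. Pcm1, a centriolar satellite protein, differed by 0.40, and its 2 other probe sets gave 0.29 and -0.05. None of the 3 was called against control with either agent. Across the 22 called genes with another probe set above the filter, 40 of 42 other probe sets had the same sign, the exceptions being those of Pcm1 and Stat3. Of the 22 genes, 8 had another probe set that passed. These probe sets read the same arrays for genes already called, so a shared sign is not separate support. Some same-sign values lay near 0, such as -0.01 for Il6ra and -0.03 for 1 of Lmna.

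The other 19 called genes, named after their values were seen, had smaller differences. The 3 higher with the antibody were Kank1, Myo10 and Mzt2 (0.31 to 0.32). The 16 higher with FGF21 ran from -0.30 to -0.58. Among them Tle3, a transcriptional co-repressor known to act in adipocytes, was at 8.64 to 9.06 with FGF21 and 8.13 to 8.29 with the antibody, and Fbxo4, an F-box protein of ubiquitin ligases, at 8.60 to 8.68 and 8.24 to 8.38. Slco2a1, the prostaglandin transporter, differed by -0.49, Blvra, biliverdin reductase A, by -0.42, and Adgre5, the adhesion receptor CD97, by -0.51. The others, besides Stat3 above, were Arhgap42, Cdc42se1, Dbndd2, Eif1a, Elmod2, P3h2, Plekhm1, Ppp2r1b, Prrg3 and Uhrf1bp1l. For Blvra and Elmod2 the antibody group was the one set apart. It differed from control by -0.64 (limma adjusted p = 0.000975) and -0.45 (limma adjusted p = 0.00117). The FGF21 group differed from control by -0.22 and -0.05 and was not called.

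Thermogenic and brown adipocyte genes had 0 of 32 called, or 2 without control 34, both higher with the antibody. Their median was 0.18, with 25 of 32 positive. An unadjusted p under 0.05 was reached by 7.42% of all genes toward the antibody and 6.07% toward FGF21. In this list, 10 reached it toward the antibody and 2 toward FGF21. Dio2, the deiodinase that makes active thyroid hormone inside the cell, was one of the latter. It read 10.20, 11.66, 10.63, 11.58 and 11.20 with FGF21 and 10.29, 10.60, 10.27, 10.67 and 9.81 with the antibody. The groups overlapped through FGF21 36 and 38 (-0.73 ± 0.24; limma adjusted p = 0.22), and without FGF21 36 and control 34 the difference was -0.94 (adjusted p = 0.0342). Elovl3, the elongase of very long-chain fatty acids in active brown fat, went the other way, at 11.77 to 12.65 with the antibody and 11.26 to 12.30 with FGF21 (0.50 ± 0.23; adjusted p = 0.361). Ppargc1a, the coactivator of mitochondrial biogenesis, differed by 0.04 (interval -0.32 to 0.39). Without FGF21 36 and control 34, the list's median was 0.06. FGF21 36 also had the lowest summed brown adipocyte marker intensity of the treated arrays, 79400, where the other 4 FGF21 arrays were at 93610 to 97090 and antibody arrays at 92260 to 101800.

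**Figure D4:**
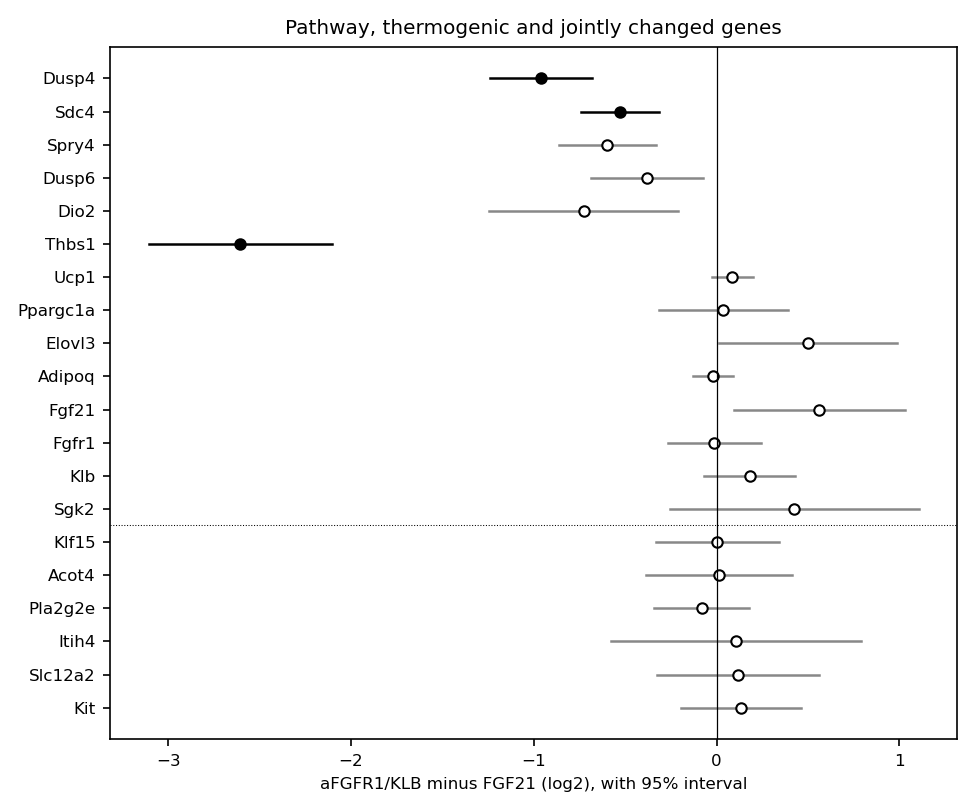
Antibody minus FGF21 difference (log2) with its 95% interval for 14 pathway and brown fat genes (above the dotted line) and 6 genes chosen for the smallest difference among those called against control with both agents (below it). Filled points and black bars are called; the interval of Ucp1 runs from -0.02 to 0.20 and that of Adipoq from -0.13 to 0.09.

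Some large responses to both agents differed little between them. From 28 genes called against control with both agents and at least 2-fold in each, the 6 with the smallest difference were taken as a description, with no test. Klf15, a transcription factor of amino acid and lipid metabolism, differed by 0.00 (95% interval -0.33 to 0.34), at 1.17 above control with each agent. Pla2g2e, a secreted phospholipase A2, differed by -0.08 (-0.34 to 0.18) and Acot4, a peroxisomal acyl-CoA thioesterase, by 0.01 (-0.39 to 0.41). Kit, the stem cell factor receptor, was the 1 lowered gene of the 6: it was 4.71 to 5.56 with the antibody, 4.76 to 5.29 with FGF21 and 6.06 to 6.61 in controls (0.13; -0.20 to 0.46). Both treated means, 5.17 and 5.04, lay near the filter level of 5.061, where a difference between the agents may not be readable. Slc12a2, a sodium, potassium and chloride transporter, differed by 0.12 (-0.33 to 0.56). Itih4, a plasma protease inhibitor family member, had the widest interval, -0.58 to 0.79. Sgk2, a serum and glucocorticoid-regulated kinase, was up 2.84 with the antibody and 2.42 with FGF21; the interval of its 0.42 difference, -0.26 to 1.10, does not exclude a 2-fold gap.

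The Fgf21 gene itself was dim. It read 5.89, 6.96, 6.23, 6.30 and 6.26 with the antibody and 5.37, 5.63, 6.54, 5.64 and 5.64 with FGF21. The 0.56 ± 0.22 difference did not pass (limma adjusted p = 0.285), and FGF21 38 stood apart from its group. The array reads the mouse transcript, not the injected human protein. In the list of FGF ligands, receptors, klothos and adaptors, 0 of 23 genes were called, with a median of 0.09.

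None of the other lists held a called gene in the fit of all 15 arrays. Without control 34, 3 glucose metabolism and 3 Slc25 genes were called higher with the antibody, as were 122 of all 13174 genes. In fits without 1 array, the glucose, insulin, glucocorticoid, metallothionein, unfolded protein and Schwann cell lists each reached at most 1 call higher with FGF21. Toward the antibody, the lipid droplet and heat shock lists each reached at most 1, and the FGF ligand and receptor list at most 2. The 33 mitochondrial carriers of the Slc25 family had a median of 0.06. An unadjusted p under 0.05 was reached by 7 toward the antibody and 1 toward FGF21, against 7.42% and 6.07% of all genes. Respiratory chain and ATP synthase subunits (0 of 70 called; median 0.07) and TCA cycle and related genes (0 of 42; 0.11) lay within 0.1 of the median over all genes. Their members were mostly positive, 62 of 70 and 38 of 42, a larger share than the 7072 of 13174 genes tested. Fatty acid oxidation genes (0 of 29) had a median of 0.09 and glucose uptake, glycolysis and glycogen genes (0 of 37) one of 0.10. Medians were 0.03 for lipid droplet and lipolysis genes (31 tested), 0.05 for insulin signalling (28), 0.08 for clock genes (20), -0.12 for metallothioneins and zinc transport (17) and -0.02 for adipokines and batokines (29). Glucocorticoid target genes (27), heat shock proteins (27), unfolded protein response genes (39) and interferon-stimulated genes (32) had medians between -0.03 and 0.01. Cell cycle genes had 30 of 31 negative, with a median of -0.30, but -0.18 without FGF21 36 and -0.07 with the macrophage and muscle covariates. As for the macrophage markers, control 34 and FGF21 36 had the highest means of this list (7.91 and 7.55, against at most 7.17 in the other 13 arrays). Ribosomal protein genes had 31 of 34 negative, with a median of -0.09, which is 0.00 by construction when arrays are centred on these genes and 0.01 with the macrophage covariate. The medians of the adrenergic, lipid droplet, clock, glucocorticoid, heat shock, unfolded protein, interferon and adipokine lists, each within 0.1 of 0, changed sign under at least 1 alternative. The interferon median moved to 0.30 with the macrophage covariate.

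**Figure D5:**
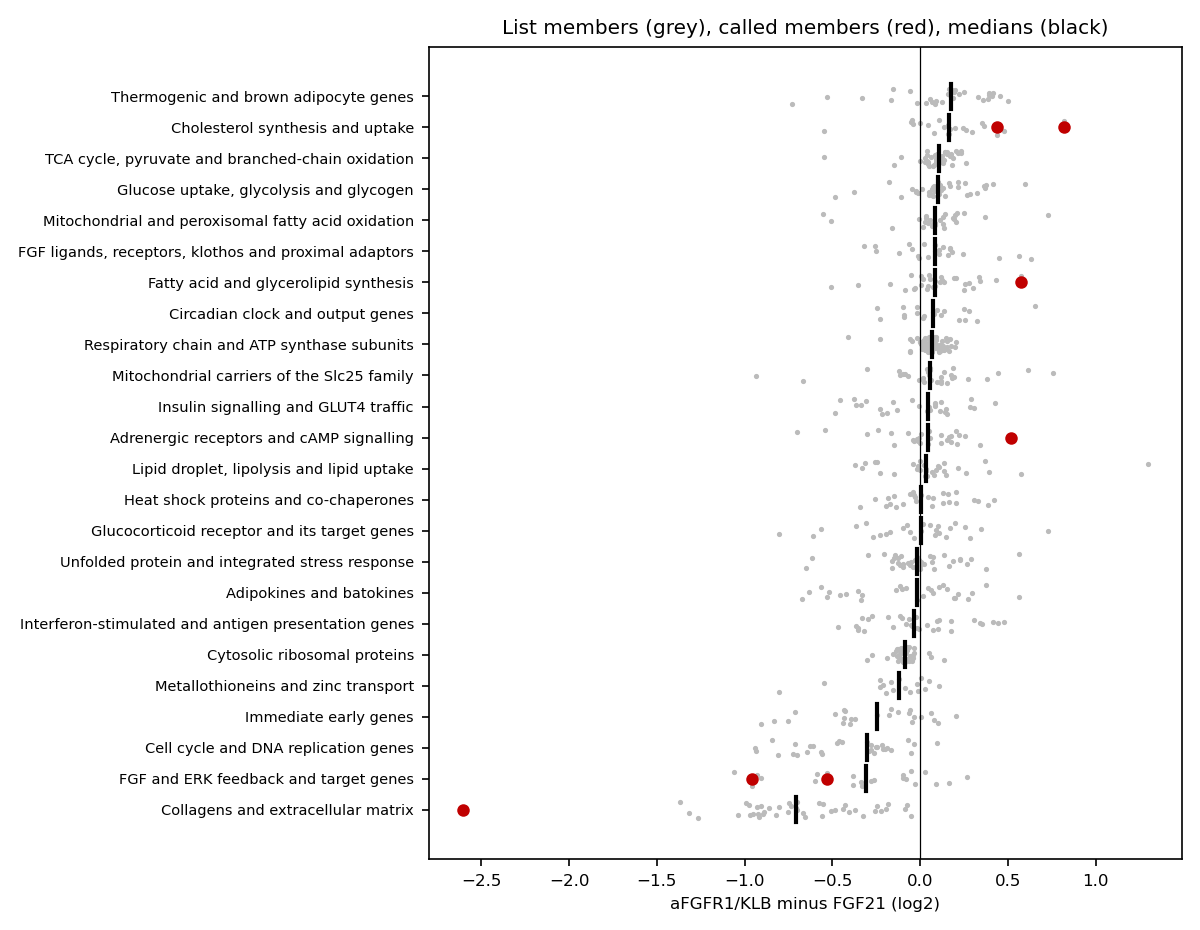
Antibody minus FGF21 difference (log2) of each tested member of the 24 pathway lists. Grey points are members not called, red points are called members (Insig1, Hmgcs1, Acsl3 and Akap1 to the right of 0; Thbs1, Dusp4 and Sdc4 to the left) and black bars are list medians, from -0.71 for matrix genes to 0.18 for thermogenic genes.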

How the data were processed

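Total RNA of 15 brown fat samples had been measured on 1-colour mouse expression arrays with probe sets (Affymetrix). The deposited values are normalised intensity on a linear scale (5.578 to 34652), made by the authors with RMA, per the submitters' processing notes; the version is not given in the sources used here, and scanner files were not used here. Array medians lay at 50.58 to 52.11. The number of arrays limits the precision (median standard error of a difference 0.0971 log2).

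Intensities were taken to log2. Of 45101 probe sets, 34958 carry 1 symbol in GEO's platform annotation, 932 several and 9211 are unnamed here; 34754 of the named matched RefSeq (GRCm38.p6). Each of 18194 genes took its brightest probe set (highest mean over 15 samples), and the 13174 above the 40th percentile of all probe sets (5.061) were tested. Differences came from lmFit and eBayes (limma 3.58.1, R 4.3.3) in a one-way model of the 3 groups, with 12 residual degrees of freedom, two-sided, with Benjamini-Hochberg adjustment over all 13174 genes. The scripts were tested on simulated data. For a single gene the exact two-sided permutation test over the 252 splits of 5 against 5 cannot go below p = 0.00794, and 47 of the 48 called genes with a full symbol reached it. Groups of 5 that do not overlap reach it by construction, so it adds nothing to that observation. Over all genes, 315 (2.39%) and 303 (2.3%) did not overlap, higher with the antibody and with FGF21.

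Named genes are the 14 highest and 14 lowest called genes whose groups do not overlap, leaving out clone-like symbols (1 was called), up to 4 called members per list, 14 genes of the pathway and of brown fat, and 6 genes with even responses. Members, the 38 lists (24 pathway and 14 marker lists) and tests were chosen with earlier results of these data known. Alternatives changed the arrays, filter, scaling, probe set rule, variance model and covariates. All samples were used, and no column of another series was held.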

Additional observations from a re-analysis of the deposited data

Results flagged for a closer look

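Within groups of 5, a single array stood apart from the other 4 by Dixon's rule in 38 of the 309 gene or list groups examined, where chance alone flags about 1 in 20. The groups are not independent, since a list mean and its genes share arrays. Values are log2 normalised intensity, and no cause was tested. Control 34 was above its group for Net1 at 6.36, Il6ra at 8.29, Adgre5 at 9.55 and Immediate early genes list mean at 8.37. It was also above for Collagens and extracellular matrix list mean at 10.64, Interferon-stimulated and antigen presentation genes list mean at 9.88, Cell cycle and DNA replication genes list mean at 7.91 and Cytosolic ribosomal proteins list mean at 12.41. Control 34 was below its group for Elovl3 at 9.54, Mzt2 at 8.72, Mitochondrial and peroxisomal fatty acid oxidation list mean at 11.71 and Lipid droplet, lipolysis and lipid uptake list mean at 11.03. It was also below for TCA cycle, pyruvate and branched-chain oxidation list mean at 11.90, brown adipocyte list mean at 12.77, adipocyte list mean at 13.28 and erythroid list mean at 6.12. FGF21 36 was above its group for Tspan4 at 10.11. FGF21 36 was below its group for Dusp4 at 9.96, Ucp1 at 14.55, TCA cycle, pyruvate and branched-chain oxidation list mean at 11.84 and Circadian clock and output genes list mean at 8.44. It was also below for brown adipocyte list mean at 13.00. aFGFR1/KLB 45 was above its group for Glucocorticoid receptor and its target genes list mean at 9.44. aFGFR1/KLB 45 was below its group for S100g at 4.55, Sgk2 at 8.28, Ppp2r1b at 10.17 and Mitochondrial and peroxisomal fatty acid oxidation list mean at 12.01. aFGFR1/KLB 41 was above its group for Net1 at 6.68. aFGFR1/KLB 41 was below its group for Blvra at 9.66 and Myo10 at 8.66. Control 33 was above its group for Schwann cell and nerve list mean at 8.54. Control 33 was below its group for Wnt5a at 6.97 and Arhgap42 at 7.29. FGF21 38 was above its group for Fgf21 at 6.54 and FGF ligands, receptors, klothos and proximal adaptors list mean at 8.09. aFGFR1/KLB 43 was below its group for Prrg3 at 8.32. aFGFR1/KLB 44 was below its group for Adipokines and batokines list mean at 8.87. Control 32 was above its group for Adrenergic receptors and cAMP signalling list mean at 9.27.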

How the results depend on the processing

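Each of the 48 calls with a full symbol kept its direction under each alternative run; what moved was the number past the threshold (49 in all, 17 higher with the antibody, 32 higher with FGF21). In that order, the counts were 87, 38 and 49 with the 10 treated arrays alone, 77, 29 and 48 with the filter at the 60th percentile, 73, 29 and 44 with 16 added to intensities, 81, 30 and 51 with a variance trend and robust fit, 34, 10 and 24 without a filter, 36, 11 and 25 after quantile normalisation again, and 95, 37 and 58 with each named probe set tested. They were 832, 470 and 362 with array weights, 149, 49 and 100 with the macrophage covariate, 225, 89 and 136 with macrophage and muscle covariates, and 241, 105 and 136 without FGF21 36 and control 34; all 49 stayed called in these 4 fits. Centring on ribosomal protein genes, which raised all differences by 0.0885, left 8, 2 and 6: Car14, Wscd2, Thbs1, Crip2, Net1, Lmna, Nav3 and Il6ra. The share higher with FGF21 was 65.3%, 43.5% with array weights and 51.4% without control 34. Of the genes, 18, 5 and 13 differed at least 1.5-fold. Averaging probe sets gave 49, of which 34 were the same genes. Leaving out 1 array gave 10 to 251 in all, 4 to 122 higher with the antibody and 6 to 129 higher with FGF21. Of the 48 named calls, 10 passed in each of the 15 such fits and 28 in under 10; adjusted p lay between 0.03 and 0.05 for 24. The cause of these shifts was not tested. No paired analysis was possible because replicate numbers do not repeat between groups. Of 1025 list medians recomputed, 16 moved beyond the spread between replicates. Signal over background was not given, so a minimum level was the one limit set for dim genes.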

Other observations

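Over the 27060 probe sets above the filter, 103 were called between the treatments with adjustment over all of them. Of these, 15 are not listed in the annotation, 14 of them higher with FGF21 and 1 with the antibody, and 1 carries several symbols; their genes are not named here.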
